A study of Arabidopsis thaliana with 6 samples.

Results

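The histone genes of Arabidopsis thaliana were followed through whole seedlings labelled as an NCBP mutant and through wild-type seedlings. They were taken from a list of 46 locus identifiers, 3 for linker histones of the H1 class, 13 for H2A, 11 for H2B, 11 for H3 and 8 for H4. Of the 46 loci, 45 had a row among the 22426 loci of the deposited table, and the transcript level of AT3G27360, an H3.1 gene, was not analysed here. There were 3 libraries labelled NCBP mutant and 3 labelled wild type, all from 2-week-old plants kept at 22 °C under 16 hours of light and 8 hours of dark. Plants grew in a greenhouse, and the sources used here do not name the allele, the accession or the number of plants per library. NCBP belongs to the eIF4E family, whose members bind the cap of messenger RNA, and the libraries allow the transcripts of such mutants to be set against those of wild type. Genes are named as in the RefSeq annotation of TAIR10.1, and loci without a symbol there are given by identifier, except for H1.1 (AT1G06760) and H1.2 (AT2G30620).

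Histones are the small basic proteins that package DNA. Copies of H2A, H2B, H3 and H4 form the core of the nucleosome, and linker histones of the H1 class bind where the DNA enters and leaves it. Plants make the bulk of H3.1, H4 and the canonical forms of H2A and H2B while DNA is copied, and unlike in animals their messages carry a poly(A) tail. Replacement variants are loaded outside replication: H3.3 over active genes, H2A.Z around gene starts and in responsive genes, H2A.W in heterochromatin and the H3 variant CENH3 at centromeres. The variant H2A.X is marked by phosphorylation at DNA breaks. H1.1 and H1.2 are the main linker histones of Arabidopsis, whereas HIS1-3 is a short, divergent linker histone known for its induction by drought and abscisic acid.

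Transcript levels were deposited as FPKM, fragments set relative to the length of each gene and the size of each library. Without library totals the absolute depth is unknown. Ratios between the lowest values placed mutant replicates 1, 2 and 3 at 1.24, 1.16 and 1.31 times the depth of wild-type replicate 1. Wild-type replicates 2 and 3 stood at 1.09 and 1.17, so mutant replicates 1 and 3 were estimated as deeper than every wild-type library. The FPKM sums lay between 979062 and 998737 in the mutant libraries and between 970383 and 1040255 in the wild-type libraries. NCBP (AT5G18110) itself had 57.9, 59.2 and 55.8 FPKM in the mutant libraries and 97.4, 100.4 and 97.9 FPKM in the wild-type libraries, so its transcript was lower but present. Whether the replicates were separate sowings is not stated by the labels, so a p-value here speaks of the spread among libraries, and that spread may be technical. Marker genes of leaf and root had values above 0 in all libraries, while the summed markers of flower, pollen and seed stayed under 6 FPKM.

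Plant histone promoters are known for short shared elements, among them the octamer CGCGGATC and the hexamer ACGTCA, so the stretches before 4 genes are shown to let these elements be seen where they occur. They are an H3.1 gene that holds both elements, an H2A gene with a pair of octamers, an H2B gene with the hexamer, and HIS1-3, which holds neither. Each is the 250 bases before the annotated start of the gene, looked up by locus in RefSeq TAIR10.1, printed 5′ to 3′ on the strand of the gene, with octamer and hexamer matches on either strand in capitals. The sources used here do not name the authors' own build, and no position of theirs was used.
AT5G10400 (H3.1, chr5:3270958-3271207, minus strand): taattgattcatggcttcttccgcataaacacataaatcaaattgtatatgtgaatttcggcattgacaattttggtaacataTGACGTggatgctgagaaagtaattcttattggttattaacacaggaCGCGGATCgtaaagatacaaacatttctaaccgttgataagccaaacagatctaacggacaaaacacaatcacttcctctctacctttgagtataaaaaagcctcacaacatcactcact
HTA10 (AT1G51060, H2A, chr1:18926561-18926810, plus strand): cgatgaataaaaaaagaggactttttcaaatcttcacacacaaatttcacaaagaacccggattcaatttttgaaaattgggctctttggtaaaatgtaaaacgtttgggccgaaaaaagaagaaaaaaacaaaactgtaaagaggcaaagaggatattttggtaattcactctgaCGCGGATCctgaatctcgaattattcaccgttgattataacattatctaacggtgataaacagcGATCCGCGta
AT2G37470 (H2B, chr2:15736477-15736726, plus strand): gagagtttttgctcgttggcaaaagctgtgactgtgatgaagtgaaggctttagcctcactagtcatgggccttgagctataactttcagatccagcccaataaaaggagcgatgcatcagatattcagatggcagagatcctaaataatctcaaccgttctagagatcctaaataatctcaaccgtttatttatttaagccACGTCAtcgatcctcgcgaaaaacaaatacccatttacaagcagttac
HIS1-3 (AT2G18050, H1, chr2:7845673-7845922, plus strand): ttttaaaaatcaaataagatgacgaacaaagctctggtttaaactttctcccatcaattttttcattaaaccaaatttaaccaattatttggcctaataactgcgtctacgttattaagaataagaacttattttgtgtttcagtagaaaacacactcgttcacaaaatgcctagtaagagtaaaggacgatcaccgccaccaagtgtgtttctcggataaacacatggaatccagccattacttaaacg
None of the 4 windows overlaps another annotated gene.

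HIS1-3 fell far below its wild-type level, while the other linker histones did not pass the test. HIS1-3 (AT2G18050) had 11.7, 13.2 and 13.1 FPKM in the mutant libraries, against 38.6, 45.8 and 55.9 FPKM in the wild-type libraries. The 3 mutant libraries lay close together and well below the lowest wild-type library. The means were 12.7 ± 0.834 FPKM in the mutant and 46.8 ± 8.70 FPKM in wild type (SD, n = 3 each). The mutant mean was 27.1% of that of wild type, and the log2 fold change was -1.79 (SE 0.12, limma adjusted p 0.000146). H1.1 (AT1G06760), the most abundant of the 3 linker histone transcripts, had 199, 193 and 191 FPKM in the mutant and 175, 187 and 183 FPKM in wild type. These groups did not overlap, but the difference was small, at a log2 fold change of 0.10 (SE 0.05, limma adjusted p 0.211). H1.2 (AT2G30620) had 112, 115 and 114 FPKM in the mutant and 98.3, 113 and 104 FPKM in wild type, which overlap (log2 fold change 0.11, SE 0.06, limma adjusted p 0.237). As a share of the summed FPKM of the 3 genes, HIS1-3 made up 3.64%, 4.11% and 4.13% in the mutant libraries, against 12.4%, 13.2% and 16.3% in the wild-type libraries. The summed FPKM of H1.1 and H1.2 was 308 ± 2.95 in the mutant and 287 ± 13.2 in wild type, and that of all 3 genes was 321 ± 2.27 in the mutant and 334 ± 18.7 in wild type, where the groups overlap. Exons of other genes on the opposite strand cover 41.9% of the exonic length of H1.1 and none of that of HIS1-3, and the sources used here do not say whether reads kept their strand. Of the genes opposite H1.1, AT1G06750 had 0.285 FPKM in the mutant and 0.292 FPKM in wild type, and AT1G04503 had no row. In whole seedlings, fewer cells of a type and less RNA per cell cannot be told apart, for HIS1-3 or for any other gene here.

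**Figure D1:**
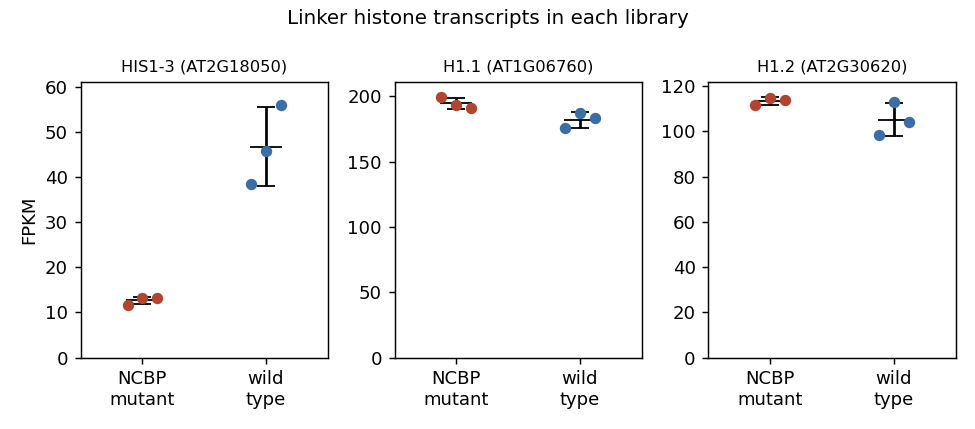
FPKM of the 3 linker histone genes in each NCBP mutant library (left) and wild-type library (right); points are libraries, and horizontal marks with bars are the mean ± SD of 3 libraries. The mutant points of HIS1-3 lie at 11.7 to 13.2 FPKM and the wild-type points at 38.6 to 55.9 FPKM, while the mutant means of H1.1 and H1.2 are at 107% and 108% of their wild-type means.

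Across the family, small rises were more frequent than falls. Of the 45 genes with a row, 41 reached a mean of 1 FPKM over the 6 libraries and were tested, and at a limma adjusted p under 0.05, here called higher or lower, 11 were higher, 5 were lower and 25 were not called. In all, 39% of the 41 were called, where 14.7% of all 18064 tested genes were. The 11 higher genes are 26.8% of the 41, where 6.27% of all tested genes were called higher. The 5 lower genes are 12.2%, where 8.44% of all tested genes were called lower. The groups did not overlap for 18 genes that were higher (43.9%) and 7 that were lower (17.1%), against 16.4% and 19.1% of all tested genes. The median log2 fold change was 0.12 over the 41 genes and 0.00 over all tested genes, and 31 of the 41 (75.6%) had a positive value, against 49.3% of all tested genes. Apart from HIS1-3, every tested histone gene stayed under a 2-fold change, with log2 fold changes between -0.48 and 0.52, and 0.249% of all tested genes were called at least 2-fold lower. Under each library scaling tried, the called histone genes kept their direction, and the balance over all genes moved: 42.6% of all calls were higher as deposited (1133 higher, 1524 lower), 53.9% when every library was scaled to an equal sum (1286 higher, 1100 lower) and 54.1% with organelle loci left out as well (1305 higher, 1107 lower). Over the histone genes those settings gave 13 higher and 5 lower, and 14 higher and 5 lower, and quantile normalization gave 15 higher and 4 lower. Among the 25 genes not called, 6 were called in at least 1 alternative. Leaving out wild-type replicate 3 left 5 higher histone genes, leaving out mutant replicate 1 left 7 higher and 3 lower, leaving out mutant replicate 2 left 6 higher, and leaving out mutant replicate 3 left 6 higher and 3 lower.

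**Figure D2:**
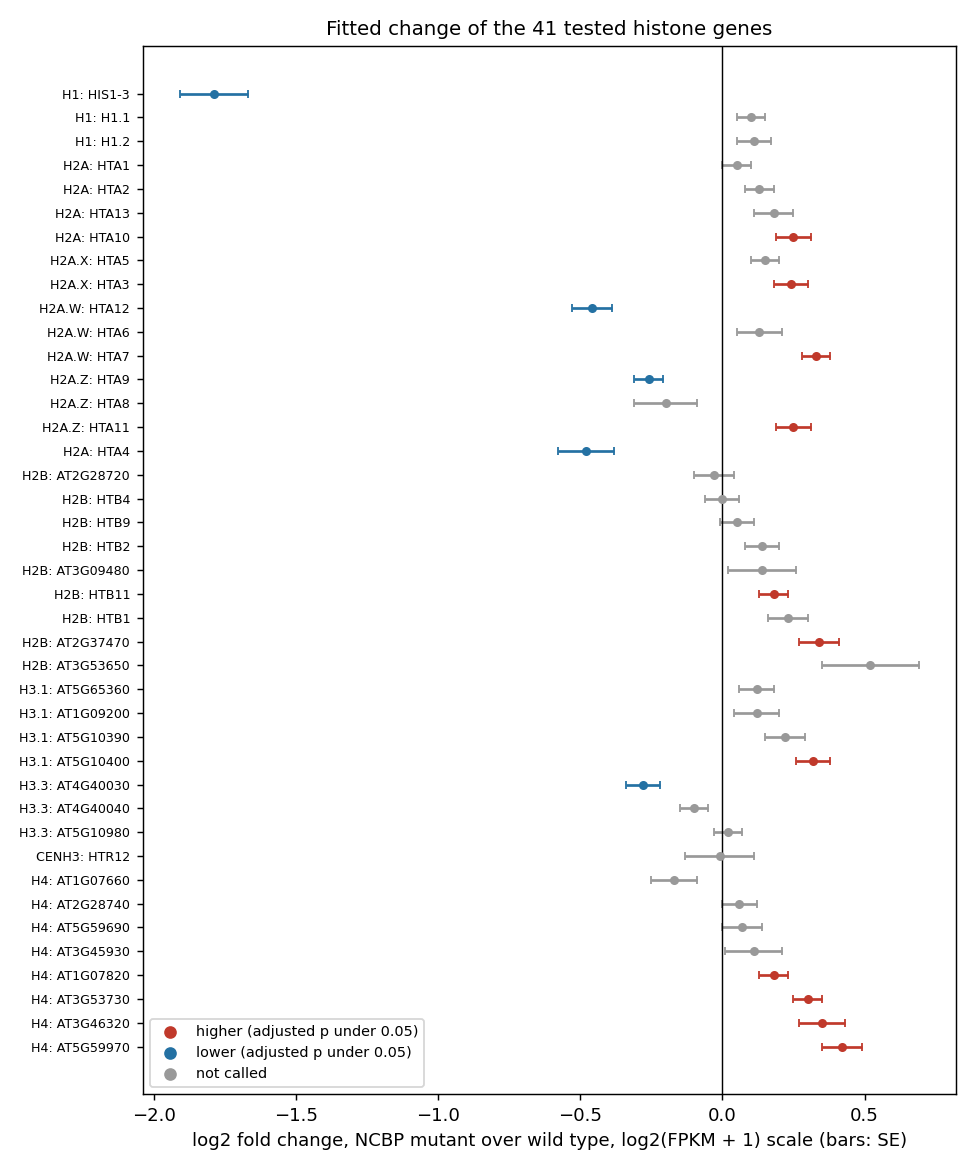
Log2 fold change (NCBP mutant over wild type, log2(FPKM + 1) scale, bars ± SE) of the 41 tested histone genes, grouped by type, with genes called higher in red, lower in blue and not called in grey. HIS1-3 stands at -1.79, the other called genes lie between -0.48 and 0.42, and the 4 called H4 genes lie at 0.18 to 0.42.

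H2A genes were called in both directions. All 13 were tested, and 4 were called higher (HTA3, HTA7, HTA10 and HTA11), 3 lower (HTA4, HTA9 and HTA12) and 6 not called. The higher genes are 30.8% of the 13, against 6.27% of all tested genes, and the lower genes 23.1%, against 8.44%. The 4 canonical genes had log2 fold changes of 0.05 to 0.25, and the most abundant, HTA10 (AT1G51060), had 159, 169 and 167 FPKM in the mutant, against 140.0, 146 and 130.3 FPKM in wild type. Every mutant library of HTA10 lay above every wild-type library (log2 fold change 0.25, SE 0.06, limma adjusted p 0.0216). HTA1, HTA2 and HTA13 were not called, at log2 fold changes of 0.05, 0.13 and 0.18. Of the H2A.X genes, whose protein is marked by phosphorylation at DNA breaks, HTA3 (AT1G54690) had 50.2 ± 2.22 FPKM in the mutant and 42.3 ± 2.58 FPKM in wild type (limma adjusted p 0.0335), and HTA5, the more abundant of the pair, had 111 ± 4.80 and 99.5 ± 4.09 FPKM in mutant and wild type (limma adjusted p 0.098). The groups of HTA5 did not overlap, and it was called higher in 3 of the 20 settings (limma adjusted p 0.0233 to 0.238). Other genes on the opposite strand cover 62.3% of the exonic length of HTA3. Of these, only AT1G54680 had a row, at 4.31 FPKM in the mutant and 6.03 FPKM in wild type. HTA10 lost its call without wild-type replicate 3 or mutant replicates 2 or 3 (adjusted p 0.0551, 0.0855 and 0.0613, range 0.00534 to 0.0855 over all settings), and HTA3 without wild-type replicates 2 or 3 or any mutant replicate (0.0535 to 0.117, range 0.0143 to 0.117).

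The heterochromatin variant H2A.W had a call in each direction among its 3 genes. HTA7 (AT5G27670) had 78.8, 75.5 and 75.5 FPKM in the mutant, against 61.2, 59.9 and 60.6 FPKM in wild type (log2 fold change 0.33, SE 0.05, limma adjusted p 0.00363). HTA12 (AT5G02560) had 27.8, 30.9 and 31.4 FPKM in the mutant, against 43.4, 39.1 and 42.4 FPKM in wild type (log2 fold change -0.46, SE 0.07, limma adjusted p 0.00425). The libraries of each group were tight in both genes and the groups did not overlap. HTA6, the most abundant of the 3, was not called, with 115 ± 8.08 FPKM in the mutant and 105 ± 9.67 FPKM in wild type. The sum of the 3 genes was 221 ± 8.09 FPKM in the mutant and 207 ± 7.90 FPKM in wild type. These sums did not overlap, by a narrow margin. The H2B gene AT5G02570 lies wholly within HTA12 on the opposite strand and covers 34.7% of its exonic length, and it lay under the filter, at means of 0.767 FPKM in the mutant and 0.466 FPKM in wild type.

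Among the H2A.Z genes, 1 fell and 1 rose. HTA9 (AT1G52740), the most abundant H2A transcript, had 201, 205 and 192 FPKM in the mutant, against 225, 247 and 244 FPKM in wild type (log2 fold change -0.26, SE 0.05, limma adjusted p 0.0172). HTA11 (AT3G54560) had 55.1, 50.9 and 59.2 FPKM in the mutant, against 46.1, 47.6 and 44.3 FPKM in wild type (log2 fold change 0.25, SE 0.06, limma adjusted p 0.0339). The groups were apart in both genes, on opposite sides, while HTA8 overlapped, at 17.6 ± 2.15 FPKM in the mutant and 20.4 ± 2.55 FPKM in wild type. HTA4 (AT4G13570), an H2A gene of low level, had 2.84, 2.41 and 2.54 FPKM in the mutant, against 3.73, 4.28 and 4.07 FPKM in wild type (log2 fold change -0.48, SE 0.10, limma adjusted p 0.017). These groups were apart too. AT4G13564, on the opposite strand, covers 8.56% of the exonic length of HTA4 and had no row. As a share of all H2A FPKM, the 3 H2A.Z genes made up 26.2% ± 0.472 in the mutant and 30.7% ± 1.01 in wild type, and the canonical genes 36.7% ± 0.521 and 33.8% ± 0.386 in mutant and wild type, and neither share overlapped between groups. Single libraries decided several of the H2A calls. HTA9 lost its call without mutant replicates 1 or 3 (adjusted p 0.0535 and 0.0556, range 0.0143 to 0.0749 over all settings), and HTA4 without wild-type replicates 2 or 3 or mutant replicate 2 (0.0514, 0.0525 and 0.061, range 0.0101 to 0.061). HTA11 lost it without any wild-type replicate or mutant replicates 1 or 3 (0.052 to 0.0972, range 0.0186 to 0.0972).

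**Figure D3:**
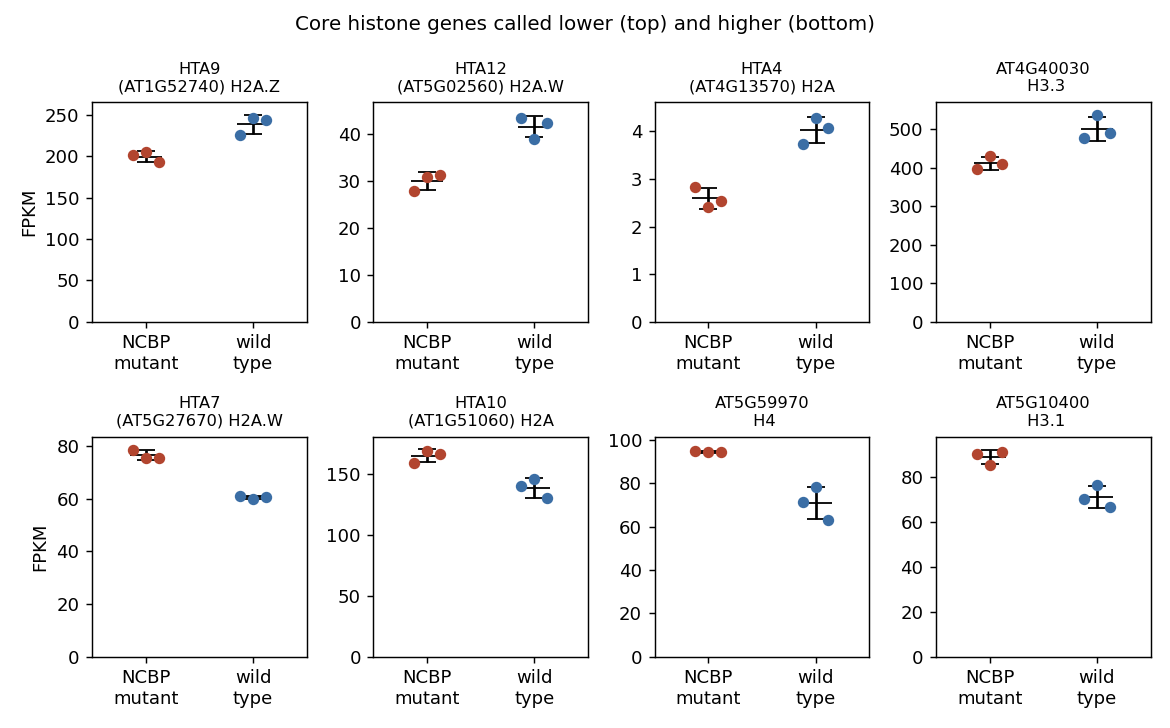
FPKM of 8 core histone genes in each NCBP mutant library (left in each panel) and wild-type library (right), with 4 genes called lower in the top row and 4 called higher in the bottom row; points are libraries, and marks with bars are the mean ± SD of 3 libraries. The groups do not overlap in any of the 8 panels, and replacement variants are among the lower genes (HTA9, HTA12 and AT4G40030) and the higher ones (HTA7).

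Of the 11 H2B genes, 9 were tested, of which 2 were called higher, 0 lower and 7 not called, and 8 had a positive log2 fold change. The 2 higher genes are 22.2% of the 9, against 6.27% of all tested genes. Positive values made up 88.9%, against 49.3% of all tested genes. With 8.44% of all tested genes called lower, a count of 0 among 9 is near the background. AT2G37470 had 84.6, 84.3 and 95.2 FPKM in the mutant, against 67.6, 74.9 and 65.4 FPKM in wild type (log2 fold change 0.34, SE 0.07, limma adjusted p 0.0159). HTB11 (AT3G46030) had 184, 182 and 195 FPKM in the mutant, against 164, 171 and 161 FPKM in wild type (log2 fold change 0.18, SE 0.05, limma adjusted p 0.0492). Both genes had each mutant library above each wild-type library, but HTB11 lost its call without any 1 of the 6 libraries (adjusted p 0.06 to 0.138, range 0.0125 to 0.138 over all settings). HTB4 (AT5G59910), the most abundant H2B transcript, had 258 ± 2.77 FPKM in the mutant and 257 ± 17.7 FPKM in wild type, with a log2 fold change of 0.00 (SE 0.06). HTB1, HTB2, HTB9, AT3G53650 and AT3G09480 had positive log2 fold changes of 0.05 to 0.52 that were not called, and AT2G28720 had -0.03. HTB1 was called higher in 5 of the 20 settings (adjusted p 0.0284 to 0.192), and AT3G53650 in 2, one of them without wild-type replicate 2 (log2 fold change 0.75, adjusted p 0.0044, range 0.0044 to 0.182). AT3G53650 was also among the least abundant, with 11.9, 12.5 and 12.5 FPKM in the mutant and 7.33, 11.6 and 6.51 FPKM in wild type. The summed FPKM of H2B was 1094 ± 13.2 in the mutant and 1017 ± 45.7 in wild type, and the groups did not overlap. AT1G08170 and AT5G02570 lay under the FPKM filter, and AT1G08170 was listed at 0 in the 3 mutant libraries and in 1 wild-type library.

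Of 11 H3 genes, 8 were tested, of which 1, an H3.1 gene, was called higher, 1, an H3.3 gene, was called lower and 6 were not called. Each count is 12.5% of the 8, against 6.27% of all tested genes called higher and 8.44% called lower, and 3 of the 4 H3.1 genes and 2 of the 3 H3.3 genes were not called. The 4 tested H3.1 genes had log2 fold changes of 0.12 to 0.32. AT5G10400, whose upstream sequence above holds both the octamer and the hexamer, had 90.2, 85.2 and 91.1 FPKM in the mutant, against 70.0, 76.4 and 66.7 FPKM in wild type (log2 fold change 0.32, SE 0.06, limma adjusted p 0.0119). Its groups did not overlap, nor did those of its neighbour AT5G10390, at 39.6 ± 3.33 FPKM in the mutant and 33.8 ± 1.47 FPKM in wild type, which was not called (limma adjusted p 0.0723) except without mutant replicate 3 (0.0402, range 0.0402 to 0.204 over all settings). AT5G65360, the most abundant H3.1 transcript, had 174 ± 8.33 FPKM in the mutant and 160.5 ± 9.32 FPKM in wild type, and overlapped, as did AT1G09200. The 3 H3.3 genes include the most abundant histone transcript by FPKM, AT4G40040. AT4G40030 had 396, 430.0 and 409.7 FPKM in the mutant, against 477, 537 and 490 FPKM in wild type (log2 fold change -0.28, SE 0.06, limma adjusted p 0.0189). AT4G40040 itself, which lies 42 bases from it on the same strand, had 469.9, 489 and 474 FPKM in the mutant and 491, 517 and 527 FPKM in wild type (log2 fold change -0.10, limma adjusted p 0.227). The groups were apart in both neighbours, with a smaller gap in AT4G40040. The third H3.3 gene, AT5G10980, had 257 ± 8.75 FPKM in the mutant and 253 ± 3.89 FPKM in wild type. The call of AT4G40030 was lost without mutant replicates 1 or 3 (adjusted p 0.0723 and 0.0547, range 0.0145 to 0.0723 over all settings).

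Summed over genes, H3.1 stood at 474 ± 12.5 FPKM in the mutant and 424 ± 31.1 FPKM in wild type, and H3.3 at 1146 ± 32.2 FPKM in the mutant and 1266 ± 47.0 FPKM in wild type. H3.3 therefore made up 69.3%, 71.0% and 71.0% of the H3 FPKM in the mutant libraries, against 73.4%, 74.2% and 76.3% in the wild-type libraries. The groups did not overlap in this share, which was not tested and leaves out AT3G27360. HTR12 (AT1G01370), which encodes CENH3, had 5.97 ± 1.12 FPKM in the mutant and 5.97 ± 0.0838 FPKM in wild type (log2 fold change -0.01, SE 0.12). The remaining H3 genes, AT1G13370 and AT1G75600, lay under the filter, with values from 0 to 1.31 FPKM in single libraries.

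The called genes of H4, the most conserved core histone, all rose. All 8 genes were tested, and 4 were called higher, 0 lower and 4 not called. The 4 higher genes are 50% of the 8, against 6.27% of all tested genes called higher. With 8.44% of all tested genes called lower, a count of 0 among 8 is near the background. AT5G59970 had 95.1, 94.2 and 94.4 FPKM in the mutant, against 71.6, 78.1 and 63.2 FPKM in wild type (log2 fold change 0.42, SE 0.07, limma adjusted p 0.00883). AT3G53730 had 173, 169 and 179 FPKM in the mutant, against 143, 144 and 135 FPKM in wild type (log2 fold change 0.30, SE 0.05, limma adjusted p 0.00677). In both genes every mutant library lay above every wild-type library. AT3G46320 had 60.7 ± 4.33 FPKM in the mutant and 47.4 ± 4.27 FPKM in wild type (log2 fold change 0.35, limma adjusted p 0.0192), and AT1G07820 had 125 ± 2.95 FPKM in the mutant and 110.3 ± 3.05 FPKM in wild type (log2 fold change 0.18, limma adjusted p 0.0353). The most abundant H4 transcript, AT5G59690, was not called, with 251 ± 12.4 FPKM in the mutant and 239 ± 19.8 FPKM in wild type. AT1G07660 stood alone with a negative value, at 29.7 ± 0.990 FPKM in the mutant and 33.7 ± 3.60 FPKM in wild type (log2 fold change -0.17, limma adjusted p 0.171), and its groups did not overlap. The sum over H4 was 874 ± 25.0 FPKM in the mutant and 774 ± 45.8 FPKM in wild type, without overlap. Copies of H4 are alike in sequence: AT1G07820 shares 19.4% of its exonic stretches of 50 bases with AT1G07660, and AT3G46320 shares 27.9% with AT3G45930, so reads from these parts cannot be assigned to 1 gene, and the sources used here do not say how the authors assigned them. To a smaller extent, AT5G59970 shares 6.94% with AT5G59690, and AT5G59690 shares 8.48% with AT5G59970. The values of all these H4 genes are uncertain for that reason. AT3G46320 lost its call without wild-type replicates 2 or 3 or mutant replicates 2 or 3 (adjusted p 0.0556 to 0.0619, range 0.00813 to 0.0619 over all settings), and AT1G07820 without wild-type replicates 1 or 3 or any mutant replicate (0.0778 to 0.117, range 0.0168 to 0.117).

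**Figure D4:**
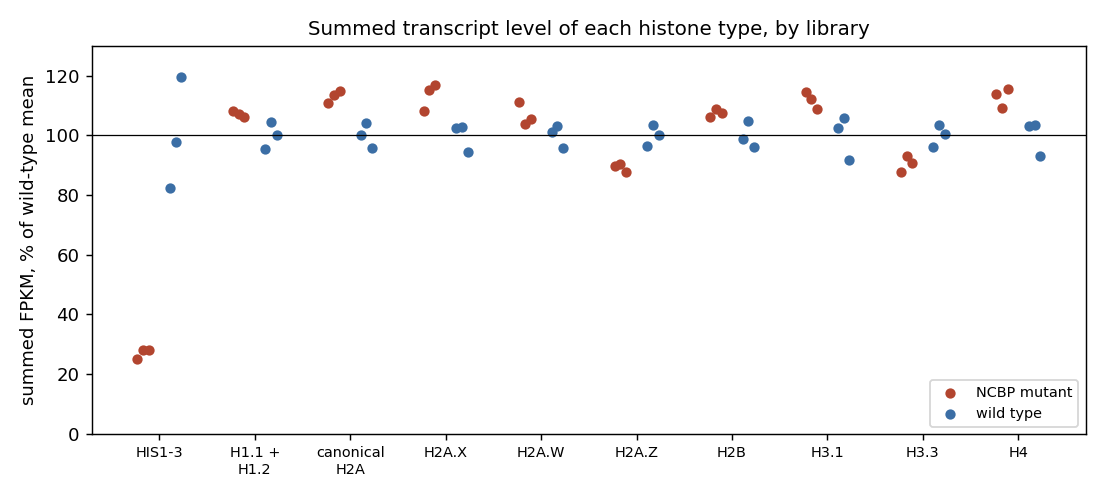
Summed FPKM of each histone type in each library, as a percent of the wild-type mean of that type; red points are NCBP mutant libraries (left of each tick) and blue points wild-type libraries (right). HIS1-3 lies at 25.1% to 28.2% in the mutant, and H2A.Z and H3.3 lie below the wild-type libraries at 87.7% to 93.0%. Canonical H2A, H2A.X, H2B, H3.1 and H4 lie above the wild-type libraries at 106% to 117%. So do H1.1 plus H1.2, at 106% to 108%, and H2A.W, at 104% to 111%.

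The total over the 42 core histone genes with a row overlapped between the groups. The summed FPKM was 4632 ± 26.1 in the mutant and 4482 ± 168 in wild type, and the mutant mean was 103% of that of wild type. The log2 ratio of the sums was 0.05 with all libraries, 0.02 without wild-type replicate 3 and 0.08 without wild-type replicate 2. By type, canonical H2A stood at 113% of its wild-type mean, H2A.X at 113%, H4 at 113%, H3.1 at 112%, H2B at 108% and H2A.W at 107%, whereas H3.3 stood at 90.5% and H2A.Z at 89.3%. These sums carry no test.

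Promoter elements were counted over the whole family. The octamer lay within the 250 bases before 10 of the 46 genes (21.7%), against 0.163% of 17807 tested protein-coding genes, 10 of whose 29 matches are these histone genes. It was found before 3 of 5 H3.1 genes, 2 of 4 canonical H2A genes, 2 of 8 H4 genes, 1 of 3 H3.3 genes, 1 of 3 H2A.W genes and H1.1, and before no H2B gene. The hexamer lay before 11 of the 46 genes (23.9%), against 8.1% of tested protein-coding genes, and 8 of those 11 were H2B genes. In all, 20 genes held either element and 1, the H3.1 gene AT5G10400, held both. Either element stood before 4 of the 11 genes called higher, 0 of the 5 called lower and 14 of the 25 not called. Other motifs searched on both strands were TTTCCCGC, a form of the E2F site, and the telo box AAACCCTA. Neither stood before any of the 46 genes, and they stood before 0.629% and 3.46% of tested protein-coding genes. No other form of the E2F site was searched. The abscisic acid element ACGTGNC stood before 8 of the 46 (9.54% of tested protein-coding genes) and the G-box CACGTG before 4 (7.33%). Matches of the hexamer, the abscisic acid element and the G-box can share the letters ACGT. HIS1-3 held none of the 6 motifs in its window, which says only that these letters are not in those 250 bases.

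Genes that handle histones are given next. Of 21 listed chaperones and chromatin remodellers, which carry, deposit or exchange histones, 1 was called higher, 1 lower and 19 not called, and the 9.52% called are near the 14.7% of all tested genes. SSRP1, a subunit of the FACT complex that opens nucleosomes for polymerases, had 26.4 ± 1.14 FPKM in the mutant and 22.5 ± 0.469 FPKM in wild type (log2 fold change 0.22, limma adjusted p 0.0327). AT2G47210 had 23.5 ± 0.804 FPKM in the mutant and 28.7 ± 1.78 FPKM in wild type (log2 fold change -0.28, limma adjusted p 0.0217). The summed FPKM of the list was 441 ± 9.12 in the mutant and 442 ± 27.1 in wild type, with a median log2 fold change of -0.01. FAS1 and FAS2, subunits of the chaperone that loads H3.1, and HIRA, the chaperone of H3.3, were not called, at log2 fold changes of 0.16, 0.19 and -0.11.

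Because canonical histones are made in S phase, genes of DNA replication and division are given beside them. Of 20 listed S-phase genes, 19 were tested, of which 3 were called higher (15.8%, against 6.27% of all tested genes), 0 lower and 16 not called, with a median log2 fold change of 0.08. The higher ones were MCM6, a subunit of the replicative helicase, and RNR1 and TSO2, which encode subunits of ribonucleotide reductase. TSO2 had 46.7, 43.7 and 47.6 FPKM in the mutant and 39.9, 39.4 and 38.7 FPKM in wild type (limma adjusted p 0.0272), RNR1 14.3 ± 0.783 and 11.6 ± 0.483 FPKM in mutant and wild type (0.0287), and MCM6 5.01 ± 0.475 and 3.56 ± 0.0488 FPKM (0.0271). Of 6 genes of G2 and mitosis, 2 were called higher (33.3%, against 6.27% of all tested genes). They were CDKB2;2, a mitotic kinase, with 9.13 ± 0.784 FPKM in the mutant and 5.93 ± 0.598 FPKM in wild type, and KNOLLE, the syntaxin of the cell plate, with 26.0 ± 0.993 FPKM in the mutant and 21.0 ± 1.51 FPKM in wild type. CYCB1;1, a mitotic cyclin, spread widely, with 25.3, 50.5 and 22.4 FPKM in the mutant and 39.1, 9.48 and 5.32 FPKM in wild type, and was not called. The summed FPKM of the 5 listed markers of dividing cells and meristems with a row lay at 57.2 to 84.7 in the mutant libraries and 35.8 to 67.5 in the wild-type libraries. Of the 4 tested, 1 (KNOLLE) was called higher (25%, against 6.27% of all tested genes), and CLV3 was listed at 0 in 5 of the 6 libraries. KNOLLE and CYCB1;1 belong to both lists, so the call of KNOLLE is the same one in each. The part of dividing tissue in the histone values was not tested.

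HIS1-3 is annotated as induced by dehydration and abscisic acid, and other genes of that response were called in both directions. Of 14 listed genes, 13 were tested, of which 4 were called higher (30.8%, against 6.27% of all tested genes), 2 lower (15.4%, against 8.44%) and 7 not called, with a median log2 fold change of 0.09. LTI78, ERD10, KIN1 and KIN2, known for their induction by cold and drought, were higher, with log2 fold changes of 0.99, 0.53, 0.65 and 0.82. The lower ones were RAB18, a dehydrin, with 83.8 ± 9.10 FPKM in the mutant and 103 ± 5.43 FPKM in wild type (log2 fold change -0.30, limma adjusted p 0.0374), and HAB1, a phosphatase that holds back abscisic acid signalling, with 18.6 ± 0.376 FPKM in the mutant and 26.1 ± 2.49 FPKM in wild type (log2 fold change -0.47, limma adjusted p 0.00563). RD29B lay under the filter, at 0.392 to 0.766 FPKM in the mutant libraries and 1.11 to 1.60 FPKM in the wild-type libraries, and was not tested.

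Markers of other tissues gave these values beside the histone results. None of 3 leaf markers and none of 5 root markers was called, and the summed root markers lay at 76.0 to 85.3 FPKM in the mutant libraries and 74.6 to 85.2 FPKM in the wild-type libraries. The leaf markers summed to 34512 to 37435 FPKM in the mutant libraries and 31450 to 38632 FPKM in the wild-type libraries. The 4 flower markers summed to 3.85 to 4.68 FPKM in the mutant libraries and 3.36 to 5.26 FPKM in the wild-type libraries, with 0 of the 2 tested called. The 4 seed markers with a row stayed under the filter and summed to 0.224 to 0.382 FPKM in the mutant libraries and 0.0939 to 1.60 FPKM in the wild-type libraries. The pollen marker VGD1 was listed at 0 in 5 of the 6 libraries, and the seed storage gene CRC likewise. The part of these tissues in the histone values was not tested.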

How the data were processed

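The 6 libraries were of total RNA from whole seedlings, per the labels' protocols. The sources used here do not state mRNA selection, strand, read length, FPKM program, build or annotation. The submitters' processing notes name HISAT2. FPKM values were analysed as deposited by the authors. They are no counts, so no count model was used. Values were taken as log2(FPKM + 1), a scale that understates changes of low genes. All 18064 loci with a mean of at least 1 FPKM were tested by limma 3.58.1 (R 4.3.3) with a variance trend on the mean, 2-sided, with Benjamini-Hochberg adjustment over all of them at 0.05, a step tested on simulated data. Sums and shares of FPKM carry no test. RefSeq TAIR10.1, which matched 22050 of 22107 nuclear loci and all 46 histone loci, gave names, exon overlap, shared 50-base stretches and the 250 bases before each gene. By rule the text names NCBP, each linker histone, each called histone gene, the most abundant gene of each type, histone genes under the filter, and up to 4 called genes with the smallest p of each other list. Further genes, among them KIN1 and RAB18, complete a count and were chosen after their values were seen. The alternatives were other pseudocounts, filters, scalings and limma settings, a replicate block, leaving out each library and a 2-fold minimum. The members, lists, motifs and alternatives were chosen with earlier results of these data known.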

Additional observations from a re-analysis of the deposited data

How the results depend on the processing

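HIS1-3 was called lower in the main analysis and in each of the 19 alternatives, with log2 fold changes between -1.92 and -1.54. The same held for HTA12, and for 5 genes called higher: AT2G37470, AT3G53730, AT5G10400, HTA7 and AT5G59970. Across these settings the limma adjusted p reached 0.0494 for AT2G37470 and 0.0456 for AT5G10400. The 19 alternatives do not include the 2-fold minimum, which is given below. The other 6 higher and 3 lower genes lost their call under at least 1 alternative, 6 genes not called gained one, and none of the called genes changed sign. Without a mean trend 6 histone genes were higher. Leaving out each library in turn gave 5 to 8 higher and 3 to 5 lower histone genes, and 1321 to 1997 calls among all genes. At a minimum of 2-fold there were 106 calls among all genes, 0 higher histone genes and 1 lower. Quantile normalization moved the log2 ratio of summed core histone FPKM to 0.09, against 0.05 as deposited and 0.02 to 0.08 with 1 library left out, and that of H1.1 plus H1.2 to 0.15, against 0.10. The cause of these shifts was not tested. With the replicate number as a block, 7 histone genes were higher and 5 lower, and 1991 genes were called in all. Deviations of same-numbered libraries from their group means had correlations of 0.0705, -0.0716 and -0.0596 for replicates 1, 2 and 3. Pairs with different numbers had -0.0821 to 0.134. With 3 libraries per group these values cannot show whether same-numbered libraries shared a sowing or a day. Leaving out loci listed at 0 in any library, an alternative chosen after seeing the data, gave 11 higher and 5 lower. Counts under the other settings stayed within 1.5 times of each count. Read numbers are unknown, so the precision of genes of low FPKM such as HTA4 is known only through the spread of the replicates.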

Other observations

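Several histone genes lie within 20000 bases of each other, and their log2 fold changes are given side by side. No difference between neighbours was tested. In the pair of H3.3 genes AT4G40030 and AT4G40040, 42 bases apart, the first was called lower at a log2 fold change of -0.28 and the second was not called at -0.10. In the pair of H3.1 genes AT5G10400 and AT5G10390, 577 bases apart, the log2 fold changes were 0.32 and 0.22, with the first called higher. The H2B gene HTB1 and the H4 gene AT1G07820, on opposite strands, had 0.23 and 0.18, and the H2B gene AT2G28720 and the H4 gene AT2G28740 had -0.03 and 0.06. On chromosome 3 the H4 gene AT3G45930 and the H2B genes HTB9 and HTB11 had 0.11, 0.05 and 0.18. HTA12 overlaps AT5G02570, which was not tested. On chromosome 5 the H2A.W gene HTA6, the H2B gene HTB4 and the H4 gene AT5G59970 follow each other, with 10656 and 17668 bases between them, and had 0.13, 0.00 and 0.42, of which the last was called higher.

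Calls were not limited to the most abundant gene of a type. The most abundant genes of H4 (AT5G59690, mean of 245 FPKM over the 6 libraries), of H2B (HTB4, 257 FPKM) and of H3.1 (AT5G65360, 167 FPKM) were not called, at log2 fold changes of 0.07, 0.00 and 0.12, while less abundant genes of the same types were (AT5G59970 at 82.8 FPKM, AT2G37470 at 78.7 FPKM and AT5G10400 at 79.9 FPKM). In canonical H2A the most abundant gene, HTA10 at 152 FPKM, was the one called.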
